A study of Rattus norvegicus with 96 samples.

Results

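Of the 32883 genes counted in each gene table of this series, 123 were restricted to the table labelled kidney. They were chosen by their level alone: the median over 12 libraries was at least 50 CPM (the counts of a gene per 1000000 counts of its library) in the kidney-labelled table and at most 1 CPM in each of the other 3 gene tables, labelled PFC (prefrontal cortex), liver and VAT (visceral adipose tissue). The levels that made the choice are therefore given as a description, without a test. The libraries came from 12 young male Sprague Dawley rats, individually housed and fasted before tissue collection, of which 6 were fed a casein-based diet (animals 1, 3, 6, 7, 9 and 11) and 6 a whole egg-based diet (animals 2, 4, 5, 8, 10 and 12) for 2 weeks. Protein was matched between the diets, no genetic alteration is given for either group, and each library came from 1 rat. The 48 gene libraries were made with QuantSeq, which reads 1 fragment near the 3′ end of a polyadenylated transcript, so a level here does not scale with transcript length.

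Tissues share most of the genes they express at a high level, such as those for ribosomes, energy metabolism and the cytoskeleton, and differ in a smaller set that serves the work of their own cell types. In the kidney such a set includes the channels and transporters of the tubule, which recover water, salt and metabolites from the filtrate. In the brain it includes genes of neurons and glia, and in the liver those of the urea cycle and of plasma protein synthesis.

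The label of the table was checked first against genes of known tissue. Slc12a3, the salt cotransporter of the distal tubule, had a median of 1.88 CPM in the kidney-labelled libraries and 172.6 CPM in the VAT-labelled libraries. Aqp1, the water channel of the proximal tubule, had medians of 8.72 and 1226 CPM in these tables, and 397 CPM in the liver-labelled one. Slc13a2, a tubular carrier of dicarboxylates, had a median of 0 CPM in the kidney-labelled libraries, where its highest value was 0.553 CPM, and 65.0 CPM in the VAT-labelled libraries. The renal genes were thus lower in the kidney-labelled than in the VAT-labelled table. Genes known from neural tissue were high in the kidney-labelled table. Ptgds, which encodes the brain's main synthase of prostaglandin D, reached a median of 1276 CPM there (549 to 1975 over 12 libraries). Ptprn, a membrane protein of neuroendocrine secretory granules, had one of 502 CPM (238 to 715). In the PFC-, liver- and VAT-labelled libraries the medians were 2.46, 7.60 and 12.3 CPM for Ptgds and 7.73, 3.97 and 77.7 CPM for Ptprn. For Cps1, the hepatic enzyme that makes carbamoyl phosphate for urea, the medians were 1758 CPM in the PFC-labelled libraries and 15.3 CPM in the liver-labelled ones. The markers went against the label, and the 123 genes are named here by the label of their table and not by a tissue.

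The small RNA tables of the same animals did not show the same pattern. The 2 microRNAs below are printed because they bear on this check. Their mature sequences are from RefSeq (build GRCr8), 5′ to 3′, with the seed (bases 2 to 8) in capitals. The location printed for each is on the plus strand of chromosome 1, at chr1:142849415-142849437 and chr1:212994232-212994252. The counts are per microRNA name and are not tied to a location.
miR-9a-5p: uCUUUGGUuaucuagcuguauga
miR-192-5p: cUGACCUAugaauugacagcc
The neural miR-9a-5p had a median of 1044 CPM in the kidney-labelled small RNA libraries and 233076 CPM in the PFC-labelled ones. The ranges over 12 libraries were 516 to 4867 CPM and 96030 to 294273 CPM and did not overlap. For miR-192-5p, known from liver and kidney, the medians were 39931 CPM in the kidney-labelled and 2608 CPM in the PFC-labelled small RNA libraries. The gene table and the small RNA table that carry the kidney label therefore differed in the tissue their markers pointed to. The origin of this difference was not tested.

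None of the 123 genes is among those to which the study's list of significantly changed genes gives a symbol, the only list of the study searched for symbols. The rat gene table used here does not hold the identifiers of the count tables. The members are given by Ensembl identifier, and neither a function nor a sequence could be tied to them. The floor of 50 CPM was met by 2555 genes in the kidney-labelled libraries, so the members were 4.81% of these. The same rule applied to each other table gave 16 of 1742 genes in the PFC-labelled table (0.918%), 13 of 2329 in the liver-labelled table (0.558%) and 26 of 1921 in the VAT-labelled table (1.35%). Of the 2555 genes, 337 were at or under 1 CPM in the PFC-labelled, 211 in the VAT-labelled and 163 in the liver-labelled table. Of the genes kept out by a single table, 72 were kept out by the liver-labelled, 28 by the VAT-labelled and 7 by the PFC-labelled table.

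The thresholds cut through a continuous range. ENSRNOG00000023935 (median 50.1 CPM) and ENSRNOG00000020746 (50.9 CPM) were just inside the floor, and ENSRNOG00000027940 (49.97 CPM) and ENSRNOG00000013389 (49.6 CPM) just outside it. At the ceiling, ENSRNOG00000016872 and ENSRNOG00000006784 were inside with liver-labelled medians of 0.996 and 0.994 CPM. ENSRNOG00000030714 was outside with 1.02 CPM in the liver-labelled table, and so was ENSRNOG00000014761 with 1.03 CPM in the VAT-labelled table. The genes on either side of a threshold differed by far less than their range over animals, such as 40.8 to 63.6 CPM for ENSRNOG00000023935.

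The ceiling left out more abundant genes with an equally small share elsewhere. The floor set the lower end of the levels of the members. Their medians ran from 50.1 to 268 CPM, with quartiles of 61.6, 84.1 and 121 CPM; 46 of 123 were at or above 100 CPM and 4 at or above 200 CPM. Every member had a count in every kidney-labelled library, the lowest being 15 counts, and 67 of 123 were at or above 50 CPM in all 12 libraries. The other 56 passed the floor by their median with at least 1 library under it.

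**Figure D1:**
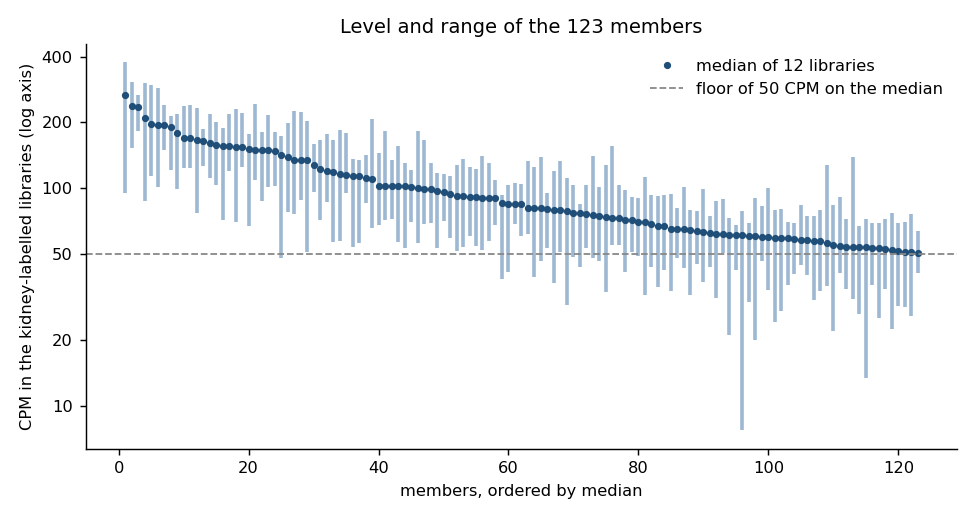
Level of the 123 members in the 12 kidney-labelled libraries, in CPM on a log axis, ordered by median. Points are medians and bars run from the lowest to the highest library; the medians fall smoothly from 268 CPM to the floor of 50 CPM (dashed line), and the lowest bar reaches 7.72 CPM.

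The highest member was ENSRNOG00000002468. On casein its lowest, median and highest values were 94.99, 244 and 355 CPM, and on egg 157, 268 and 377 CPM. The lowest library was animal 3 and the highest animal 2, a range of 3.97-fold, and the diets overlapped over most of it. The second, ENSRNOG00000018200, had 193, 246 and 286 CPM on casein and 152, 217 and 307 CPM on egg. ENSRNOG00000052549, with almost the same median (236 CPM), had 183, 243 and 268 CPM on casein and 206, 232 and 263 CPM on egg, the smallest relative spread of all members. ENSRNOG00000018850 (209 CPM) ranged from 87.5 CPM in animal 7 to 303 CPM in animal 11, both on casein, while its 6 egg libraries stayed between 186 and 251 CPM. The other 6 of the 10 highest had medians between 170 and 198 CPM. The median of each of these neighbours lay inside the range of the next, so their order did not exceed the spread over animals.

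The spread over the 12 animals was expressed as the coefficient of variation (CV, the SD as percent of the mean of the CPM). Over the members it had a median of 23.5% (quartiles 19.0% and 27.8%, range 11.2% to 47.4%). For 2024 other genes with medians in the range of the members it was 21.9%. Counting error alone, at the mean count of each member, had a median CV of 5.83%. The most even members were ENSRNOG00000052549 (11.2%), ENSRNOG00000004067 (11.2%; 126 to 186 CPM) and ENSRNOG00000023935 (12.3%). ENSRNOG00000007374 was the most variable (47.4%), with 40.2, 65.5 and 139 CPM as lowest, median and highest on casein and 30.8, 53.8 and 98.0 CPM on egg. It was followed by ENSRNOG00000002468 (38.8%) and ENSRNOG00000009206 (38.4%). ENSRNOG00000009206 had 7.72 CPM (15 counts) in animal 7 and up to 78.3 CPM in animal 11, a 10.1-fold range within casein, against 42.2 to 71.0 CPM on egg.

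The casein libraries were the more uneven ones. The median CV was 26.9% over the 6 casein libraries and 18.7% over the 6 egg libraries, and 97 of 123 members (78.9%) were more variable on casein. The 2024 other genes had medians of 25.8% and 17.0%, and 1681 of them (83.1%) were more variable on casein. Animal 7, the library with the lowest total (1942907 counts), was the lowest of the 12 for 58 members (47.2%) and for 49.7% of the other genes. The median member lay 0.46 below its own mean log2 CPM there, and 0.22 below it in animal 9, the deepest library. The first principal component of the members' log2 CPM held 39.9% of the variance, against 43.7% for the other genes, and was led by animal 7. The part of depth in these low values was not tested.

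**Figure D2:**
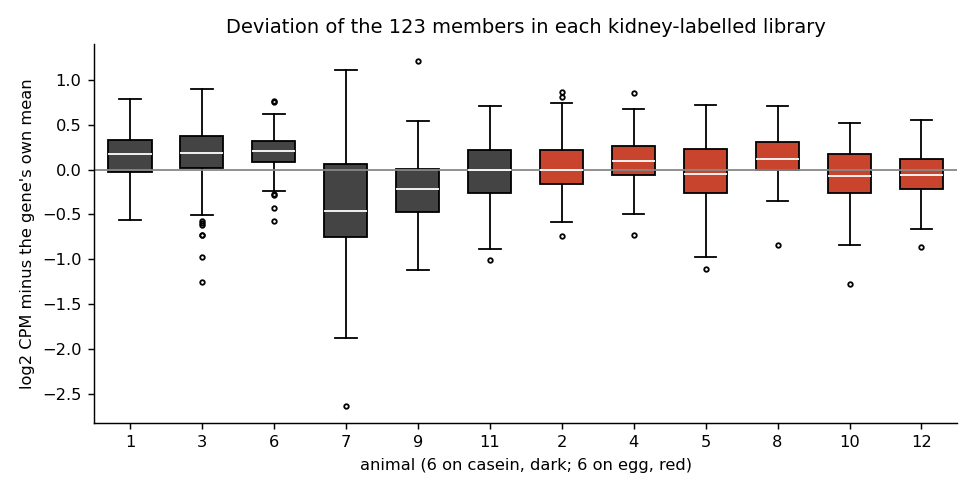
Deviation of each member's log2 CPM from its own mean in the 12 kidney-labelled libraries (boxes: quartiles over 123 members, white line the median, whiskers to 1.5 times the box, points beyond). The box of animal 7 lies lowest, with a median of -0.46, followed by animal 9 with -0.22; both were on casein.

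Summed over the members, the level differed little between animals. The sum was 9973 to 13579 CPM on casein (median 12563, mean 12082 ± 1611, SD, n = 6) and 11519 to 13010 CPM on egg (median 12245, mean 12199 ± 582, SD, n = 6). The members thus made up 0.997% to 1.36% of a kidney-labelled library. Animals 7 (9973 CPM) and 9 (10406 CPM) were the lowest and the egg range lay inside that of casein. With totals scaled by TMM (trimmed mean of M values, which corrects for a few very abundant genes), the ranges narrowed to 10964 to 12595 CPM on casein (SD 615) and 11812 to 12688 CPM on egg (SD 430). The diets overlapped under both scalings. In bulk tissue, fewer cells of a type and less RNA per cell cannot be told apart.

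The diets were then compared gene by gene in the kidney-labelled table, a contrast that the choice of members did not use. All 123 members passed the filter of at least 10 counts in at least 6 libraries. No member was called as changed: by the quasi-likelihood test of edgeR, adjusted over 9610 genes by the Benjamini-Hochberg method, 0 members and 0 genes in all (0%) had an adjusted p under 0.05, and the lowest adjusted p of a member was 0.999883. At an unadjusted p under 0.05, 2 members were higher on egg and 0 lower. Over all genes tested 56 (0.583%) were higher and 71 (0.739%) lower at that limit. These are fewer genes than a limit of 0.05 passes on average when no gene differs. DESeq2 and limma-voom also gave 0 members and 0 genes in all after adjustment. Each had 3 members at an unadjusted p under 0.05, all higher on egg. Over all genes DESeq2 had 110 higher and 158 lower of 17830 at that limit, and limma-voom 72 higher and 68 lower of 9610. DESeq2 was run without the count filter. No member had CPM ranges that did not overlap between the diets, as 7 of the 9610 genes did (0.0728%).

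The fold changes of the members were small. Their log2 fold changes, egg over casein, had a median of 0.011 and a range of -0.43 to 0.39, against a median of -0.014 for all genes tested. In this fit 68 of 123 members were higher on egg, and 58 of 123 when library totals were used without TMM. The median log2 fold change in that second fit was -0.007 for the members and -0.031 for all genes tested. The majority thus turned with the scaling, and the members, which share libraries, are not independent. The 95% interval of the log2 fold change lay between -1 and 1 for 121 of 123 members, so a 2-fold difference was outside the interval for these, and it lay within 1.5-fold either way for 89. The widest bounds over the members were -1.13 and 1.05.

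**Figure D3:**
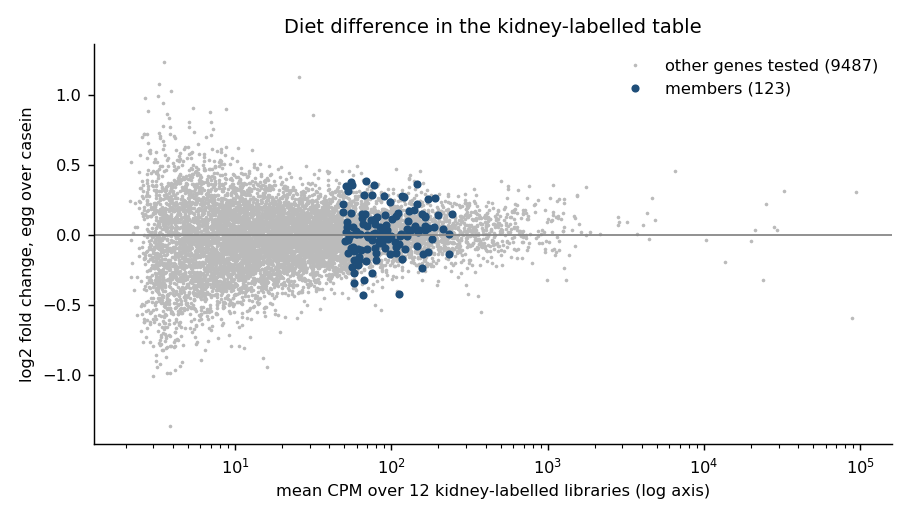
Log2 fold change of egg over casein against mean CPM (log axis) in the kidney-labelled table for 9610 genes, with the 123 members in blue. The members lie between -0.43 and 0.39 on both sides of 0, within the cloud of the other genes.

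The members nearest to the limit show how far the diets overlapped. ENSRNOG00000002811 had 43.2, 63.9 and 70.5 CPM as lowest, median and highest on casein and 50.2, 81.1 and 92.9 CPM on egg. Its log2 fold change was 0.39 ± 0.16 (SE; edgeR unadjusted p = 0.0253, adjusted p = 0.999883), and 5 of 6 egg libraries were above the casein median. ENSRNOG00000032828 had 71.5, 143 and 182 CPM on casein and 123, 166 and 188 CPM on egg, with a log2 fold change of 0.37 ± 0.18 (edgeR unadjusted p = 0.0489, adjusted p = 0.999883). Its egg range overlapped the upper part of the casein range. In the other direction, ENSRNOG00000006957 had 58.3, 77.6 and 88.8 CPM on casein and 50.5, 59.2 and 68.3 CPM on egg (log2 fold change -0.32 ± 0.17, edgeR unadjusted p = 0.0662). All 6 egg libraries were under its casein median, yet the ranges overlapped. ENSRNOG00000000007 had 72.0, 116 and 182 CPM on casein and 71.0, 90.9 and 147 CPM on egg (log2 fold change -0.42 ± 0.22, edgeR unadjusted p = 0.0723).

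Counts of the members were also found in the other 3 tables, at levels that the rule held low. Summed over the members and set against the kidney-labelled median of 12245 CPM, the share was 0.174% to 0.795% in the PFC-labelled libraries (median 0.270%), 0.340% to 1.34% in the liver-labelled libraries (median 0.645%) and 0.229% to 1.17% in the VAT-labelled libraries (median 0.433%). Some of these libraries also stood apart in genes other than the members: 6 liver-labelled (animals 3, 4, 5, 9, 10 and 12) and 2 VAT-labelled libraries (animals 1 and 9). They held over 2% of the level of genes restricted to another table than the kidney-labelled one. The highest value was 22.4%, for PFC-labelled genes in the liver-labelled library of animal 5. The liver- and VAT-labelled libraries with the highest shares of the members were among them. The limit of 2% that set these libraries apart was chosen after seeing the data. Without these libraries the median share of the members was 0.553% (0.340% to 0.818%, n = 6) in the liver-labelled and 0.392% (0.229% to 0.834%, n = 10) in the VAT-labelled table, and the rule gave 126 genes, 117 of them members. No library of these tables was free of the members. The fewest members with a count in a library were 27 of 123, in the VAT-labelled library of animal 2, and the most were 111, in the PFC-labelled library of animal 5.

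**Figure D4:**
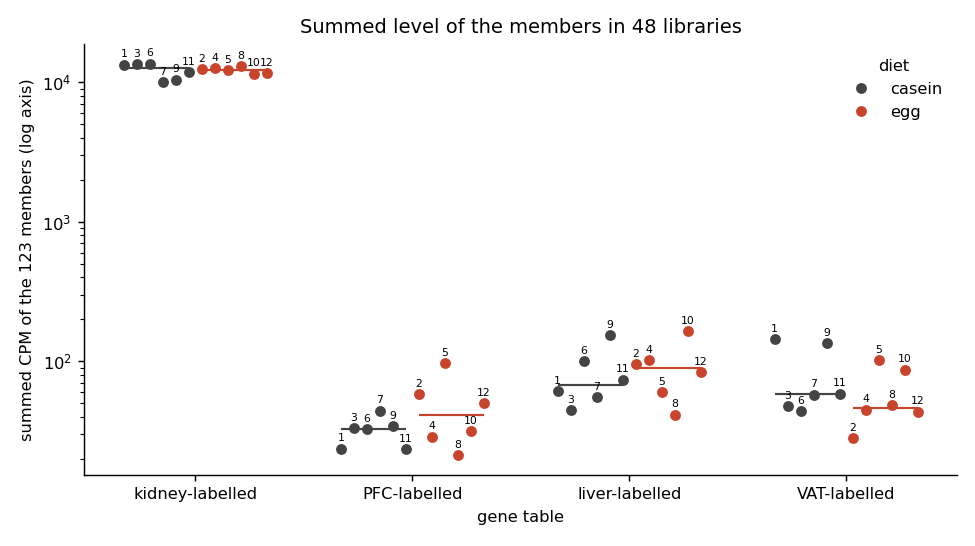
Summed CPM of the 123 members in each of the 48 gene libraries (log axis), by table and diet, with the animal number above each point and a line at the median of each group. The kidney-labelled libraries lie between 9973 and 13579 CPM and those of the other tables between 21.3 and 164 CPM.

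The libraries with the highest shares were of different animals in each table, except that animal 9 stood high in both the liver- and VAT-labelled tables. In the PFC-labelled table animal 5 stood highest with 97.4 CPM, followed by animal 2 with 58.3 CPM. In the liver-labelled table animals 10 (164 CPM) and 9 (155 CPM) were highest, and these had totals of 1899506 and 1779421 counts, the lowest of that table. In the VAT-labelled table animals 1 (143 CPM) and 9 (135 CPM) were highest, and the library of animal 9 was the shallowest of all, with 941980 counts. By diet the summed level was 23.6 to 44.3 CPM on casein and 21.3 to 97.4 CPM on egg in the PFC-labelled table, 45.0 to 155 CPM and 41.6 to 164 CPM in the liver-labelled table, and 43.8 to 143 CPM and 28.1 to 102 CPM in the VAT-labelled table. The diets overlapped in each.

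Single members were at the edge of detection in these libraries. Of 1476 values per table, 580 were 0 in the PFC-labelled, 425 in the liver-labelled and 649 in the VAT-labelled libraries. A count of 0 allows up to 3 counts, which is 0.422 CPM in the deepest PFC-labelled library and 3.18 CPM in the shallowest VAT-labelled one; intervals and limits of this kind cover counting error only. Each member had a count in at least 1 library of each other table, and in 9 to 34 of the 36 libraries in all (median 23). Values above 5 CPM numbered 0 in the PFC-labelled, 6 in the liver-labelled and 12 in the VAT-labelled libraries.

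The share of a member elsewhere did not follow its level closely. As medians over the members, the mean level was 0.286% of the kidney-labelled mean in the PFC-labelled table, 0.665% in the liver-labelled table and 0.534% in the VAT-labelled one. For the 41 highest members these shares were 0.311%, 0.584% and 0.434%, and for the 41 lowest 0.294%, 0.707% and 0.544%. Across the 123 members, which share libraries and are not independent, Spearman's rho between the mean level in the kidney-labelled table and that in another was 0.68 for PFC, 0.48 for liver and 0.49 for VAT. Members that were high in their own table were thus, as a description, also those with more counts elsewhere. The rule bounded both levels, by the floor of 50 CPM and the ceiling of 1 CPM on the medians. The ceiling also held the share of a high member lower than that of a low one. The shares and rho were therefore shaped by the choice of members, and neither trend was tested.

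**Figure D5:**
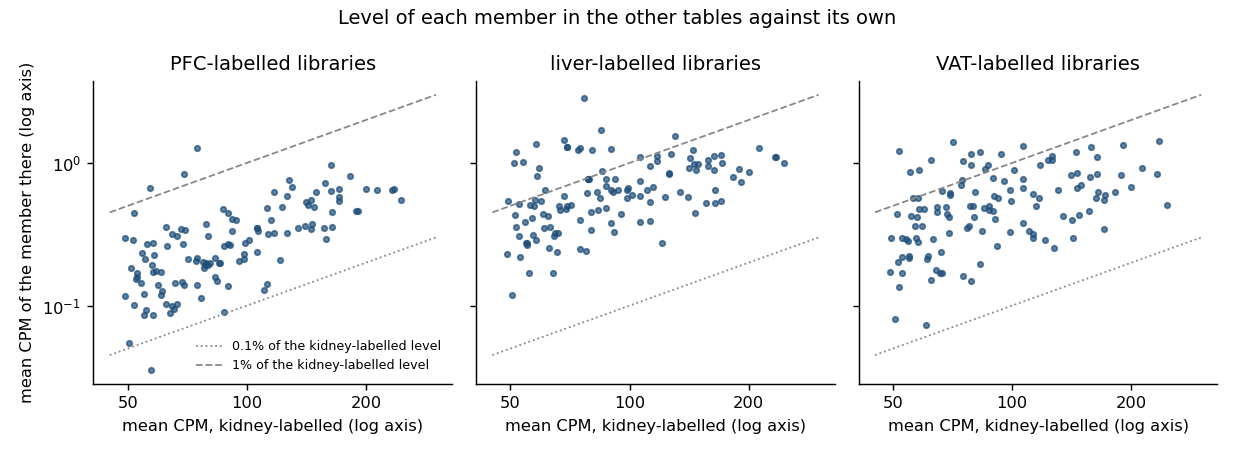
Mean CPM of each member in the PFC-, liver- and VAT-labelled libraries against its mean in the kidney-labelled libraries (both axes log), with lines at 0.1% and 1% of the kidney-labelled level. Most members lie between the lines, and the highest point is ENSRNOG00000045771 in the liver-labelled panel.

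The 3 members with the largest sums over the 36 other libraries differed in how the counts were spread. ENSRNOG00000008481 (median 74.8 CPM in the kidney-labelled table) had the largest sum; its mean was 1.70% of its kidney-labelled mean in the PFC-labelled, 1.69% in the liver-labelled and 1.38% in the VAT-labelled table, and it had a count in 29 of the 36 libraries. Its trace was thus spread over tables and animals. ENSRNOG00000045771 (76.6 CPM) had a share of 3.73% in the liver-labelled table, where animal 10 alone held 20.01 CPM against a median of 0.699 CPM, and shares of 0.148% in the PFC-labelled and 0.454% in the VAT-labelled table. ENSRNOG00000018200, the second highest member, had a mean of 1.42 CPM in the VAT-labelled table (a share of 0.604%), where animal 9 held 11.7 CPM against a median of 0.471 CPM. For both of these genes 1 library made up most of the trace in that table.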

How the data were processed

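The gene tables hold the raw count of each gene that STAR gave for QuantSeq reads trimmed with BBDUK and aligned to the rat genome of Ensembl, as deposited by the authors; the small RNA tables hold counts per microRNA deposited by the authors, made with smallrnaseq, and list only some microRNAs. The deposited comparison tables hold fold changes and p-values of egg against casein and were not used. The submitters' notes name DESeq and FastQC without a version. Diets were read from column headings, and no value column was without a sample.

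From the counts, CPM were computed on column totals over 32883 genes. Total counts were 1942907 to 5001397 per kidney-labelled library, 2109815 to 7105361 per PFC-labelled, 1779421 to 3770139 per liver-labelled and 941980 to 5120978 per VAT-labelled library. Genes that reached 10 counts in 6 or more libraries were scaled by TMM and tested with edgeR 4.0.16 (quasi-likelihood, robust). The alternatives were limma 3.58.1 (voom) and DESeq2 1.42.0, all in R 4.3.3. The edgeR fit was also run on simulated counts drawn gene by gene. These lack the pattern that genes share over animals, so no conclusion is drawn from them. The threshold was an adjusted p under 0.05. Other floors, ceilings, scalings and filters were tried, each animal was left out in turn, and 2 alternatives were chosen only once the values were known.

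The genes given by name are the 10 highest members, the 2 of smallest p for diet in each direction, the 3 of highest and of lowest CV, the 2 on each side of each threshold, the 3 with the largest sum in the other libraries, and markers of tissue. The members and lists were chosen with earlier results of these data known.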

Additional observations from a re-analysis of the deposited data

Results flagged for a closer look

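In groups of 6 libraries of 1 diet, 70 groups of values were searched for a library that stood apart from the other 5, by a limit of 0.625 on its gap as a part of the whole range, and 2 were found. Chance flags about 1 in 20 groups. ENSRNOG00000000007 had 147 CPM in the kidney-labelled library of animal 2, on egg, and at most 94.9 CPM in the other 5 egg libraries. With this library included its egg mean was 96.5 ± 26.3 CPM (SD, n = 6).

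Ptgds had 1454 CPM in the liver-labelled library of animal 12, on egg, and between 3.92 and 14.7 CPM in the other 11 liver-labelled libraries. The value lay inside the range of the kidney-labelled libraries, 549 to 1975 CPM. The summed members in the same library were at 84.0 CPM, or 0.686% of their kidney-labelled level, against a median of 0.645% over the 12 liver-labelled libraries. The library also stood apart in other genes: those restricted to the VAT-labelled table were at 13.9% of their own level there, against 0.205% to 0.751% in the other 11 liver-labelled libraries. In the VAT-labelled libraries Ptgds itself was at 2.28 to 33.6 CPM. The cause was not tested.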

How the results depend on the processing

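The count of 0 members with an adjusted p under 0.05 held under DESeq2, limma-voom, the other scalings and filters, and without each animal in turn. Over all genes tested the count was also 0 in each of these settings, so the result is not particular to the members. The number at an unadjusted p under 0.05 was 2, and 0 to 4 without 1 animal. Over all 9440 to 9563 genes tested without 1 animal, 32 to 165 were higher and 41 to 132 lower on egg at that limit. The 165 belonged to the fit without animal 7, in which 121 were lower. The number of restricted genes followed the thresholds: 277 with a floor of 20 CPM, 46 with 100 CPM, 49 with a ceiling of 0.5 CPM, 198 with 2 CPM, and 259 when the ceiling was replaced by a fiftieth of the kidney-labelled median, chosen after seeing the data. Without the 6 liver-labelled and 2 VAT-labelled libraries that held genes of another table, also chosen after seeing the data, it was 126. TMM-scaled totals gave 128 genes, 119 of them members. Without 1 animal it was 113 to 134, and 106 of the 123 members passed whichever animal was left out. The summed level was 10076 CPM without the 10 highest members, and 12148 to 12342 CPM without 1 animal. The shares elsewhere, without 1 animal, were 0.265% to 0.274% (PFC-labelled), 0.600% to 0.692% (liver-labelled) and 0.391% to 0.476% (VAT-labelled), and the median CV 20.7% to 24.5%. No paired analysis was possible because no rat was on both diets and the animal numbers are not shared between the diets. Depth limits single members elsewhere, where most values rest on a few counts.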

Other observations

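The ceiling of 1 CPM leaves out abundant genes with an equally small share elsewhere. When each other table was instead held to a fiftieth of the kidney-labelled median, a rule chosen after seeing the data, 259 genes passed, all 123 members among them, with medians of up to 6989 CPM. Together they made up 8.19% of a kidney-labelled library (median). The 136 genes that were not members had median shares of 0.280% in the PFC-labelled, 0.792% in the liver-labelled and 0.578% in the VAT-labelled table, beside 0.286%, 0.665% and 0.534% for the members. Of these 136 genes, 68 had a median above that of the highest member.

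In the reverse direction, the genes restricted to each other table were found in the kidney-labelled libraries at similar shares of their own level. The medians over 12 libraries were 0.422% for the 16 genes of the PFC-labelled table (0.238% to 0.910%), 0.429% for the 13 of the liver-labelled table (0.208% to 0.780%) and 0.268% for the 26 of the VAT-labelled table (0.156% to 1.24%). Animal 4 was highest for the PFC- and VAT-labelled genes and animal 6 for the liver-labelled genes. The rule holds the medians of all these genes low, so no comparison between directions was tested.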
